A study of Mus musculus with 4 samples.

Results

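The genes examined here are the Wnt ligands and the proteins that receive, restrain and carry out Wnt signals: Wnt ligands, Frizzled receptors, Lrp co-receptors, Lgr receptors, secreted, membrane and intracellular inhibitors, and the TCF/LEF transcription factors. They were taken by gene symbol from a count table of 24421 rows, with no use of measured values, and 54 members were found. Of these, 33 had enough counts to be tested, 21 did not, and 5 of the 21 had no count in any library. The RNA came from lymphatic endothelial cells, the lining of lymphatic vessels. They were taken from lungs of mice at postnatal day 0 by sorting cells without the leukocyte protein CD45 and with the endothelial protein CD31 and GFP. Jun-cKO animals were Prox1-CreER;Junf/f;Rosa26-mTmG, with both alleles of Jun floxed, and Jun-Ctrl animals were Prox1-CreER;Junf/+;Rosa26-mTmG, with 1 floxed allele. Both groups carried Cre recombinase under Prox1, in the tamoxifen-dependent form that CreER denotes, and the Rosa26 reporter that turns green once Cre has acted. Each group had 2 libraries, called replicate 1 and replicate 2 (the title of the second carries the word replicate), each from 3 to 5 pooled mice.

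Wnt proteins are secreted lipid-modified ligands. They bind a Frizzled receptor, and in the canonical branch also Lrp5 or Lrp6, which stops the Axin complex from marking beta-catenin for destruction. Beta-catenin then enters the nucleus and works with TCF/LEF factors, whose targets include inhibitors of the pathway itself, such as Axin2, Nkd1, Znrf3 and Notum. Other Wnts, among them Wnt5a and Wnt5b, mostly act without beta-catenin, on cell polarity and movement. Canonical Wnt signalling is known in mice for its part in lymphatic valve formation, and Wnt5b is known in zebrafish for the specification of lymphatic cells.

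Total counts were 15558476 and 6911821 in the libraries labelled Jun-cKO and 16037416 and 6483514 in Jun-Ctrl. Jun, an AP-1 subunit and the gene targeted here, had 524 and 475 CPM (counts scaled by TMM to a common library size) in the Jun-cKO-labelled libraries and 472 and 433 CPM in Jun-Ctrl. Its log2 fold change was 0.14 (SE 0.12), with an adjusted p of 0.354 in the quasi-likelihood test of edgeR that gives every adjusted p below unless another tool is named, so the targeted gene was not lower where the label says it was deleted. Counts are per gene, and which exon the floxed allele removes is not given here. The libraries are therefore called Jun-cKO-labelled, and the directions reported depend on the label being right. Lymphatic markers were present in all 4 libraries, with Prox1 at 34.2 and 31.9 CPM in Jun-cKO-labelled libraries and 39.3 and 43.6 CPM in Jun-Ctrl, while Ccl21a of that list of 13 had no count. Since the series design describes cells of 3 replicates being combined ahead of RNA amplification, the p-values here measure library-to-library spread only, and that spread may be technical.

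Promoter sequences of 35 of the 54 members were in the RefSeq table for GRCm38.p6, and 3 are shown as examples. They are those of Wnt5b, called higher below, and of Axin2 and Fzd7, called lower. The calls of Wnt5b and Axin2 did not stand in every setting below. Each line gives the 250 bases before an annotated start, 5′ to 3′ on the strand of the gene, and capitals mark a match to a searched motif. Wnt5b lies on chr6:119544348-119544597 (minus strand), Axin2 on chr11:108920099-108920348 (plus strand) and Fzd7 on chr1:59481897-59482146 (plus strand).
Wnt5b: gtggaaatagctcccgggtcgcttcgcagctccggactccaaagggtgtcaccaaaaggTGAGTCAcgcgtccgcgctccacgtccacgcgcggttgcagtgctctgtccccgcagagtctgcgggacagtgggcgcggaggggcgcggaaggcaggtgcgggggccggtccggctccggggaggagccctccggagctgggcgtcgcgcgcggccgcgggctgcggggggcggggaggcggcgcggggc
Axin2: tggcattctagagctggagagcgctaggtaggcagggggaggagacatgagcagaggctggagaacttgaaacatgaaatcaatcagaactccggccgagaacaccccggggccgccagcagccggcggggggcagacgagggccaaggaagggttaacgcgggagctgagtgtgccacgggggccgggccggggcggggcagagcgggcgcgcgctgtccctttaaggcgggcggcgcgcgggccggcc
Fzd7: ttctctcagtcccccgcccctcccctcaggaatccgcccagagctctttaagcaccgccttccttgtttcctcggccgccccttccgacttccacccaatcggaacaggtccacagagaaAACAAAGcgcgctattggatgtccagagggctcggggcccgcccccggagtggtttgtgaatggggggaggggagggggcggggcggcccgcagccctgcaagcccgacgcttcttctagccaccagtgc
The capitals in Wnt5b are the AP-1 motif, searched as TGACTCA or TGAGTCA, and those in Fzd7 are the TCF/LEF motif, searched as CTTTGAA or CTTTGAT and as CTTTGTA or CTTTGTT. Both motifs were searched on either strand. The AP-1 letters stood in 1 of the 44 annotated promoters of members and in 4.46% of the 32851 promoters of the table. The TCF/LEF letters stood in 6 of the 44 and in 14.8% of all promoters. Wnt5b has other annotated starts without the AP-1 letters, and the TCF/LEF letters stand before another of them. A match describes these letters in this window and is not evidence of binding. The median GC content of the 44 member promoters was 65.8%, against 52.4% over all promoters.

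Among the 33 tested members, 15 were lower and 2 higher in the Jun-cKO-labelled libraries at an adjusted p under 0.05. Over all 12656 tested genes 22.5% were called lower and 19.0% higher, so 45.5% of the tested members were lower and 6.06% higher. Lower calls fell among Wnt ligands (2 of 8 tested), Frizzled receptors (4 of 10), Lrp co-receptors (1 of 2), secreted inhibitors (3 of 4), the 1 tested membrane inhibitor, intracellular inhibitors (2 of 3) and TCF/LEF factors (2 of 3). The 2 higher members were the ligand Wnt5b and the receptor Fzd4. The median log2 fold change was -0.39 over the tested members and 0.01 over all tested genes. Of the 15 lower members, 4 (Wnt6, Fzd2, Sfrp2 and Lef1) passed the filter on low counts through the Jun-Ctrl libraries alone, the group where they are high, so their calls are values and not support for the count. Over all tested genes 883 passed that way and 614 of them were called lower. Without such genes 11 of 29 members were lower, against 18.9% of all tested genes. Both Jun-cKO-labelled libraries lay below both Jun-Ctrl libraries for 23 tested members and above them for 4, against 35.9% and 35.4% of all tested genes. The 23 include Wnt6, Fzd2, Sfrp2 and Lef1, for which the filter favoured this order, so for them it is a value and not support. The 35.9% likewise includes genes that passed through Jun-Ctrl alone.

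**Figure D1:**
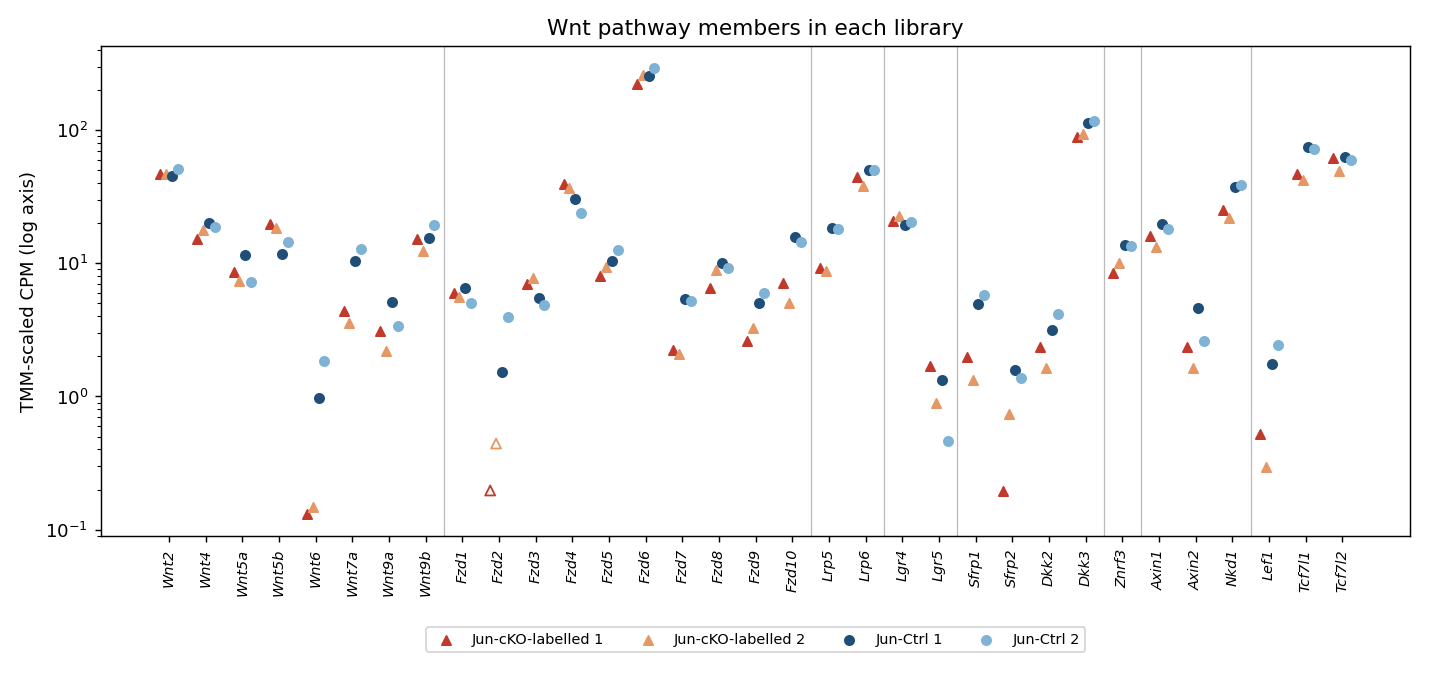
Level of the 33 tested members in each library, as TMM-scaled CPM on a log axis, in blocks from Wnt ligands on the left to TCF/LEF factors on the right; triangles are Jun-cKO-labelled and circles Jun-Ctrl libraries, and open symbols mark a count of 0, drawn at 3 counts. Levels run from Fzd6, above 200 CPM in all 4 libraries, to Fzd2, with no count in either Jun-cKO-labelled library.

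Many markers of other lung cells were lower in the same libraries, and their part in the Wnt results was not tested. Beside the marker counts here, 22.5% of all tested genes were called lower and 19.0% higher. Some called markers passed the filter on low counts only through the group where they are high. Their calls are values and not support for these counts. Of 22 lung epithelial markers 20 were lower and none higher, and their summed level was 229 to 234 CPM in Jun-cKO-labelled libraries and 2002 to 2083 CPM in Jun-Ctrl. Of 17 tested mesenchymal markers 11 were lower and 1 higher, with sums of 716 to 759 CPM against 923 to 966 CPM. Of 12 tested immune markers 10 were lower and 1 higher, with sums of 220 to 240 CPM against 497 to 501 CPM. The epithelial, mesenchymal and mesothelial lists had no marker at 0 in every library, and of the immune list Cd3e was. The mesothelial list had 2 lower and 1 higher of 5, and the blood endothelial list 4 lower and 4 higher of 11. Lymphatic markers had 4 higher and 1 lower of 12, with sums of 23710 to 23868 CPM in Jun-cKO-labelled libraries and 17302 to 18531 CPM in Jun-Ctrl. Lyve1, Reln, Mmrn1 and Nts were higher, and these abundant genes weigh most in the sums. Lyve1 alone had 8641 and 10260 CPM in Jun-cKO-labelled libraries and 6402 and 5971 CPM in Jun-Ctrl. Flt4 was lower, at 1201 and 897 CPM against 1677 and 1499 CPM, so the sums do not describe every marker. In sorted bulk RNA, fewer cells of a type and less RNA per cell cannot be told apart.

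Most Wnt ligand RNA in these cells came from a few genes, with Wnt2 first in all 4 libraries. Wnt2, a ligand that specifies the lung during development and that endothelium secretes in the liver, led at 22.3 and 22.2 CPM per kilobase in Jun-cKO-labelled libraries and 21.2 and 24.2 CPM per kilobase in Jun-Ctrl. That was 53.7% and 55.1% of the summed length-scaled Wnt level in Jun-cKO-labelled libraries and 49.6% and 51.4% in Jun-Ctrl. These levels divide by the length the authors give, and amplified RNA need not cover a transcript evenly. Wnt5b came next in the Jun-cKO-labelled libraries, at 7.41 and 6.90 CPM per kilobase. In Jun-Ctrl its level of 4.41 and 5.42 CPM per kilobase overlapped that of Wnt4, at 5.22 and 4.88 CPM per kilobase. Wnt9b, like Wnt2 a ligand of liver endothelium, followed at 3.38 and 2.74 CPM per kilobase in Jun-cKO-labelled libraries and 3.44 and 4.33 in Jun-Ctrl. The sum over all 19 Wnt genes was 41.6 and 40.3 CPM per kilobase in Jun-cKO-labelled libraries and 42.9 and 47.1 in Jun-Ctrl.

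Wnt5b was the only ligand called higher by this test. It had 19.7 and 18.3 CPM in Jun-cKO-labelled libraries and 11.7 and 14.4 CPM in Jun-Ctrl, and the groups did not overlap. It rose 1.49-fold (log2 ratio 0.58, SE 0.18, adjusted p = 0.00808). Its call ended without Jun-Ctrl replicate 1, where the log2 fold change was 0.39 (adjusted p = 0.217), and in DESeq2 (adjusted p = 0.0671). After a correction for GC content its log2 fold change was 1.04 (adjusted p = 1.42e-05). Its close relative Wnt5a had 8.58 and 7.38 CPM in Jun-cKO-labelled libraries and 11.5 and 7.19 CPM in Jun-Ctrl. These groups overlapped, and the log2 fold change of Wnt5a was -0.28 (95% interval -0.72 to 0.17).

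Wnt7a and Wnt6 were lower. Wnt7a, a ligand known from limb, reproductive tract and vascular development, had 4.39 and 3.54 CPM in Jun-cKO-labelled libraries and 10.5 and 12.9 CPM in Jun-Ctrl. It fell 2.80-fold (log2 ratio -1.49, SE 0.24, adjusted p = 1.85e-06). Wnt6, a ligand of ectoderm and epithelium, had 2 and 1 counts in Jun-cKO-labelled libraries and 16 and 12 counts in Jun-Ctrl. The ratio of its pooled levels was 0.112, with an exact counting interval of 0.0218 to 0.362, and its adjusted p was 0.000797. Without Jun-cKO-labelled replicate 1 the adjusted p of Wnt6 was 0.0501.

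The other tested ligands gave values without a call. Wnt2 had a log2 fold change of -0.02 (95% interval -0.29 to 0.25), Wnt4, a ligand of kidney and gonad development, of -0.26 and Wnt9b of -0.29. Wnt9a, a close relative of Wnt9b, had 3.08 and 2.21 CPM in Jun-cKO-labelled libraries and 5.15 and 3.37 CPM in Jun-Ctrl, with a log2 fold change of -0.70 (adjusted p = 0.0678, SE 0.31). With library totals its adjusted p was 0.0484. Of the 11 ligands that could not be tested, Wnt1, Wnt8a, Wnt10a and Wnt10b had no count in any library. Wnt3 had 2 and 3 counts in Jun-cKO-labelled libraries and 15 and 3 in Jun-Ctrl, and Wnt2b had 2 and 2 against 9 and 4. Wnt7b, the ligand of distal lung epithelium, had 2 and 0 counts against 0 and 3. Wnt3a, Wnt8b, Wnt11 and Wnt16 had at most 3 counts in a library.

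**Figure D2:**
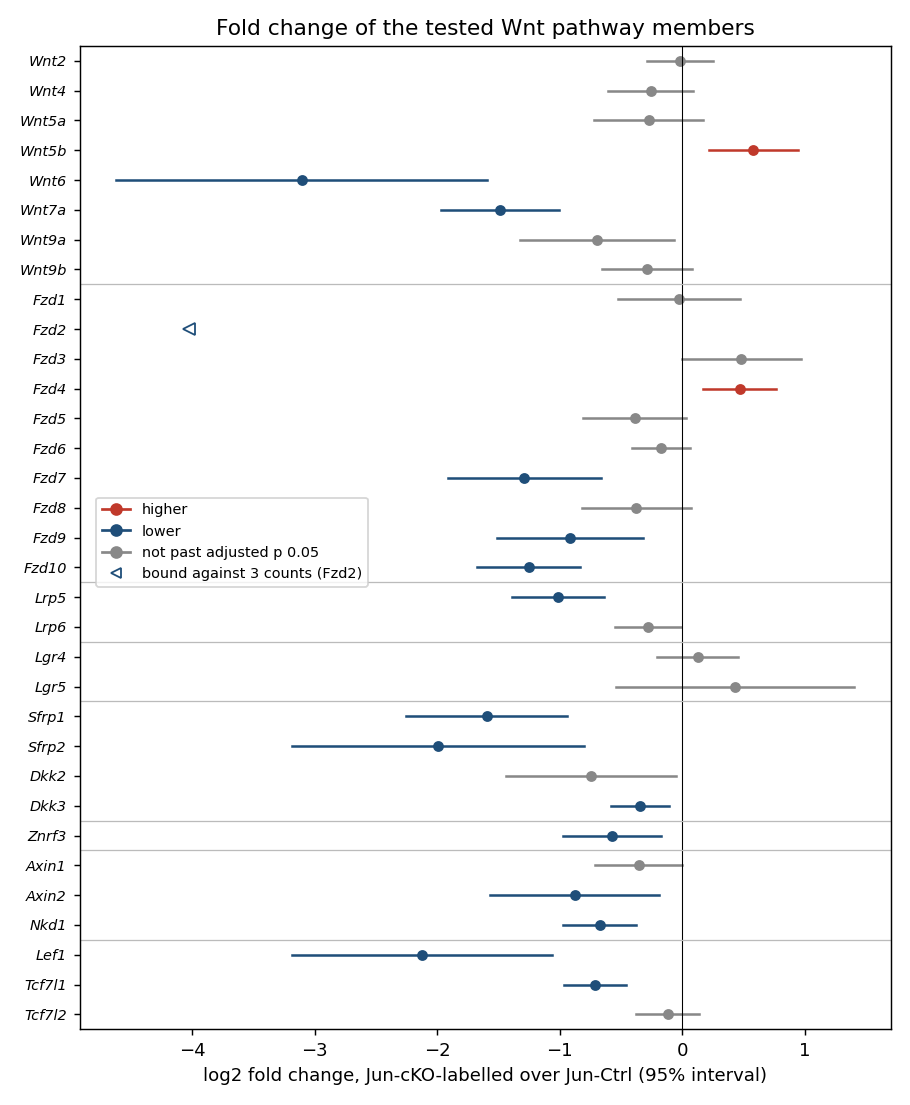
Log2 fold change of each tested member, Jun-cKO-labelled over Jun-Ctrl, with its 95% interval, in blocks by role; red is higher, blue lower and grey not past an adjusted p of 0.05. Fzd2, with no count in either Jun-cKO-labelled library, is drawn as an open triangle at its bound of -4.02 against 3 counts, and Wnt5b and Fzd4 are the 2 members in red.

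Fzd6 supplied most of the Frizzled RNA. This receptor, known for planar polarity of hair and skin, stood at 54.2 and 63.3 CPM per kilobase in Jun-cKO-labelled libraries and 61.7 and 70.7 CPM per kilobase in Jun-Ctrl. That was 73.2% and 76.3% of the summed length-scaled Frizzled level in Jun-cKO-labelled libraries and 72.1% and 75.9% in Jun-Ctrl. The log2 fold change of Fzd6 was -0.17 (95% interval -0.41 to 0.07), without a call except under the replicate block with GC correction (adjusted p = 0.0257). Fzd4 was second, at 10.7 and 10.1 CPM per kilobase in Jun-cKO-labelled libraries and 8.33 and 6.48 in Jun-Ctrl, and every other Frizzled gene lay below 6 CPM per kilobase in all 4 libraries.

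Fzd4, the receptor for norrin in the vessels of the eye, was higher in the Jun-cKO-labelled libraries. It had 39.4 and 37.1 CPM there and 30.7 and 23.9 CPM in Jun-Ctrl, without overlap. It rose 1.38-fold (log2 ratio 0.47, SE 0.15, adjusted p = 0.00964). The call was lost in DESeq2 with an adjusted p of 0.0521, on omitting Jun-Ctrl replicate 2 (log2 ratio 0.30, adjusted p = 0.217) and without Jun-cKO-labelled replicate 1 (adjusted p = 0.0529). Fzd9 and Fzd10, which belong with Fzd4 to one Frizzled subfamily, were lower. Fzd10 had 7.14 and 5.02 CPM in Jun-cKO-labelled libraries and 15.6 and 14.4 CPM in Jun-Ctrl, and fell 2.39-fold (log2 ratio -1.25, SE 0.21, adjusted p = 3.82e-06). Fzd9, a receptor known from bone and the nervous system, had 2.62 and 3.25 CPM against 5.03 and 5.97 CPM. It fell 1.89-fold (adjusted p = 0.0113). For Fzd9 the call was lost in DESeq2 (0.0994), with the GC correction (log2 ratio -0.46, adjusted p = 0.222), without Jun-cKO-labelled replicate 1 (0.129) and without Jun-Ctrl replicate 1 or 2 (0.0596 or 0.0805).

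In the subfamily of Fzd1, Fzd2 and Fzd7 the members differed in their values. Fzd2, a single-exon gene on chromosome 11 (102604396 to 102608058, plus strand, GRCm38) that mesenchyme expresses in the developing lung, had 0 counts in both Jun-cKO-labelled libraries and 25 and 26 counts in Jun-Ctrl. Set against 3 counts for the whole group, it was at least 16.3-fold lower (adjusted p = 2.98e-07). Its Jun-Ctrl libraries were themselves apart, at 1.52 and 3.98 CPM. Fzd7, the gene of the promoter shown with a TCF/LEF match, had 2.23 and 2.07 CPM in Jun-cKO-labelled libraries and 5.40 and 5.2 CPM in Jun-Ctrl. It fell 2.44-fold (log2 ratio -1.29, SE 0.31, adjusted p = 0.000755). Fzd1 overlapped between the groups, at 6.03 and 5.61 CPM in Jun-cKO-labelled libraries and 6.55 and 5.05 CPM in Jun-Ctrl, and its log2 fold change was -0.03 (95% interval -0.53 to 0.47). The remaining receptors had no call, with log2 fold changes of -0.39 for Fzd5, -0.37 for Fzd8 and 0.48 for Fzd3.

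**Figure D3:**
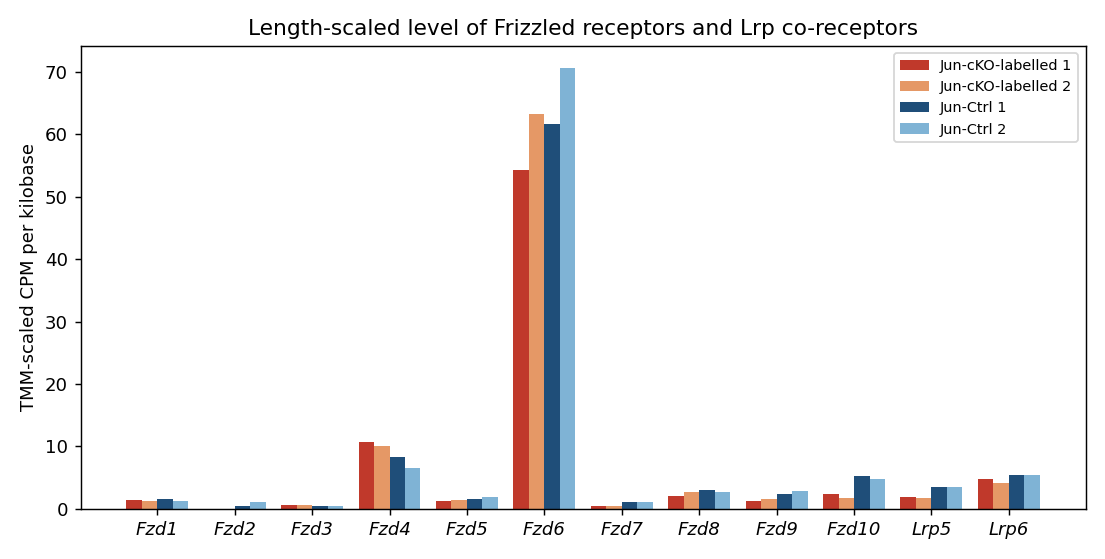
TMM-scaled CPM per kilobase of the authors' gene length for the 10 Frizzled receptors and the 2 Lrp co-receptors, with 1 bar for each library, Jun-cKO-labelled in red and orange and Jun-Ctrl in dark and light blue. Fzd6 stands above 54 CPM per kilobase in all 4 libraries, and Fzd4 is second.

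The co-receptors Lrp5 and Lrp6, which Wnts bring together with a Frizzled, gave different values. Lrp5 had 9.31 and 8.71 CPM in Jun-cKO-labelled libraries and 18.4 and 18.2 CPM in Jun-Ctrl, and the groups stood well apart. It fell 2.02-fold (log2 ratio -1.01, SE 0.19, adjusted p = 2.22e-05). Lrp6 had 44.2 and 38.1 CPM against 50.03 and 50.5 CPM, with a log2 fold change of -0.28 (adjusted p = 0.09, SE 0.13). Lrp6 passed after GC correction (log2 ratio -0.38, adjusted p = 0.0169), with library totals (adjusted p = 0.0429), under the replicate block with GC correction (0.0047) and without Jun-cKO-labelled replicate 1 (0.045). The difference between the 2 co-receptors was not tested. Among the receptors of R-spondins, which keep Frizzleds at the surface, Lgr4 had 20.8 and 22.7 CPM in Jun-cKO-labelled libraries and 19.3 and 20.5 CPM in Jun-Ctrl, with no call. Lgr5, a canonical target and stem cell marker, stood at 1.70 and 0.89 CPM against 1.33 and 0.46 CPM, also without a call, and Lgr6 had 2 counts in all.

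Of the genes that canonical signalling is known to switch on to limit itself, Axin2, Nkd1 and Znrf3 were tested, and all 3 were called lower. Over all tested genes 22.5% were called lower, and 32.9% of those at or above the median GC content, where all 3 lie. Axin2, a scaffold of the destruction complex and a common readout of the pathway, had 2.36 and 1.62 CPM in Jun-cKO-labelled libraries and 4.61 and 2.60 CPM in Jun-Ctrl. The nearest libraries of the 2 groups were thus close. It fell 1.84-fold (log2 ratio -0.88, SE 0.34, adjusted p = 0.0344). That call ended without Jun-Ctrl replicate 1 (log2 ratio -0.33, adjusted p = 0.683), without Jun-cKO-labelled replicate 2 (0.117), in DESeq2 (0.242) and after GC correction (0.116). Nkd1, which binds Dishevelled and dampens the signal, had 25.1 and 21.8 CPM in Jun-cKO-labelled libraries and 37.3 and 38.6 CPM in Jun-Ctrl. It fell 1.6-fold (log2 ratio -0.68, SE 0.15, adjusted p = 0.000281).

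Znrf3, a ubiquitin ligase that removes Frizzleds from the surface, had 8.52 and 10.04 CPM in Jun-cKO-labelled libraries and 13.7 and 13.5 CPM in Jun-Ctrl. It fell 1.49-fold (adjusted p = 0.0165). Its call ended in DESeq2 (adjusted p = 0.108), without Jun-cKO-labelled replicate 1 (0.139) and without Jun-Ctrl replicate 1 or 2 (0.12 or 0.0542). Axin1, the constitutive scaffold, had 16.0 and 13.3 CPM against 19.8 and 18.1 CPM, with a log2 fold change of -0.36 (adjusted p = 0.094, SE 0.17). With Jun-cKO-labelled replicate 1 omitted its adjusted p was 0.0467. Another 4 genes of this kind had too few counts to test: the membrane inhibitor Apcdd1 with 0 and 0 counts in Jun-cKO-labelled libraries and 16 and 2 in Jun-Ctrl, Nkd2 with 0 and 0 against 2 and 9, the ligase Rnf43 with 1 and 0 against 1 and 0, and Notum, an enzyme that strips the lipid from Wnts, with 0 and 0 against 2 and 0.

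Of the 4 secreted inhibitors that could be tested 3 were lower, where 22.5% of all tested genes were, and Sfrp2 among them passed the filter through Jun-Ctrl alone. Sfrp1, which binds Wnts outside the cell, had 1.97 and 1.33 CPM in Jun-cKO-labelled libraries and 4.97 and 5.81 CPM in Jun-Ctrl. It fell 3.03-fold (log2 ratio -1.6, SE 0.33, adjusted p = 0.000106). Sfrp2, of the same family, had 3 and 5 counts in Jun-cKO-labelled libraries and 26 and 9 in Jun-Ctrl, and fell 3.98-fold (adjusted p = 0.00579). The Sfrp2 call ended in DESeq2 (adjusted p = 0.141) and without Jun-cKO-labelled replicate 1 (log2 ratio -1.02, adjusted p = 0.322). Dkk3, a divergent Dickkopf protein whose action on Wnt signals is disputed, was the most abundant member of this class per length. It had 88.3 and 93.3 CPM in Jun-cKO-labelled libraries and 114 and 117 CPM in Jun-Ctrl, and fell 1.27-fold (log2 ratio -0.35, SE 0.12, adjusted p = 0.0141). Its adjusted p was 0.0705 without Jun-cKO-labelled replicate 1, and with either Jun-Ctrl library omitted it was 0.0725 (replicate 1) or 0.0851 (replicate 2).

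Dkk2, which blocks Lrp5 and Lrp6, had 2.36 and 1.62 CPM in Jun-cKO-labelled libraries and 3.15 and 4.13 CPM in Jun-Ctrl, with a log2 fold change of -0.74 (adjusted p = 0.0783, SE 0.35). Under the replicate block with GC correction its adjusted p was 0.0378. Among the untested inhibitors, Dkk4 had 1 and 0 counts in Jun-cKO-labelled libraries and 10 and 6 in Jun-Ctrl, and Dkk1 had 2 and 2 against 9 and 1. Sfrp5 ran the other way, with 11 and 5 counts in Jun-cKO-labelled libraries against 2 and 0 in Jun-Ctrl. Sfrp4 had no count.

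Of the factors that carry the signal on DNA, Tcf7l1 and Tcf7l2 were the main ones by length-scaled level, and Lef1 was scarce. Tcf7l1, which mostly represses Wnt targets, had 47.0 and 42.2 CPM in Jun-cKO-labelled libraries and 74.8 and 72.2 CPM in Jun-Ctrl. It fell 1.64-fold (log2 ratio -0.71, SE 0.13, adjusted p = 1.2e-05). After GC correction its log2 fold change was -0.27 (adjusted p = 0.0699). Tcf7l2 overlapped between the groups, at 62.3 and 49.8 CPM against 63.1 and 59.5 CPM (log2 fold change -0.12, 95% interval -0.38 to 0.14). Tcf7l1 was 53.8% and 56.5% of the summed length-scaled TCF/LEF level in Jun-cKO-labelled libraries and 63.9% and 64.0% in Jun-Ctrl. Lef1, an activator that is also a canonical target, had 8 and 2 counts in Jun-cKO-labelled libraries and 29 and 16 in Jun-Ctrl, and fell 4.36-fold (log2 ratio -2.13, SE 0.53, adjusted p = 0.00105). Tcf7 had 7 and 4 counts against 11 and 5 and was not tested.

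Fold changes in this comparison varied with base composition, and Wnt members are rich in G and C. Their median transcript GC content was 52.9%, against 49.7% over the 12188 tested genes with a value. Over those genes the Spearman correlation of log2 fold change with GC content was -0.34. For replicate 1 minus replicate 2 it was 0.21 within the Jun-cKO-labelled group and -0.27 within Jun-Ctrl, so libraries of 1 group also differed by GC content. Of the 23 tested members at or above the median GC of all tested genes, 14 were lower and 1 higher, where 32.9% of all such genes were lower and 11.5% higher. Of the 10 members below it, 1 was lower and 1 higher, where 12.2% of all such genes were lower and 26.4% higher. The 1 lower member below it was Lef1, and the 14 lower members at or above it include Wnt6, Fzd2 and Sfrp2. These genes passed the filter on low counts through Jun-Ctrl alone, so their calls are values and not support for these counts. With a GC correction 13 members were lower and 2 higher, against 19.9% lower and 19.3% higher over all genes, and 14 of the 17 calls stood in the same direction. Lef1, Wnt6, Fzd2 and Sfrp2 are among these 13 too, and the same limit holds for them. Level differed as well: 9 of the 16 members with a mean under 10 CPM were lower, where 30.1% of all such genes were. Wnt6, Fzd2, Sfrp2 and Lef1 are among these 9, and they passed the filter on low counts through Jun-Ctrl alone. Their calls are values and not support for the count, and the 30.1% includes genes that passed in the same way. Of the 17 at or above 10 CPM, 6 were lower and 2 higher, where 18.6% of all such genes were lower and 23.6% higher. Exons of the called members Axin2, Lef1, Sfrp2 and Tcf7l1 overlap an annotated gene on the other strand. So do those of Wnt5a, Fzd5, Fzd6, Wnt7b, Wnt11 and Notum, which were not called or not tested, and of Jun. The strand setting of the counting is not given in the sources used here.

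**Figure D4:**
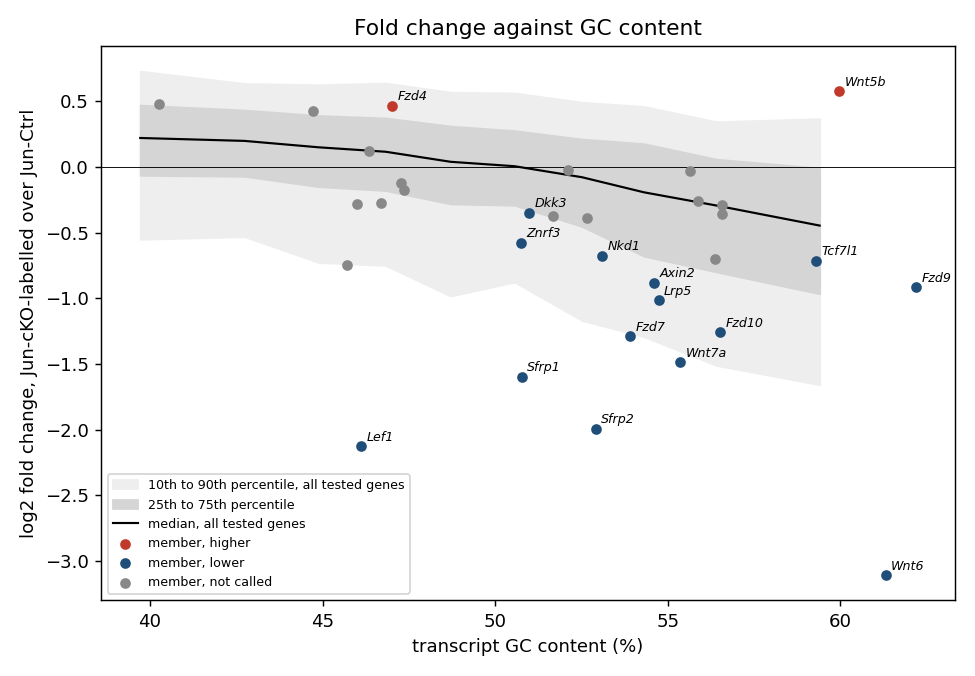
Log2 fold change, Jun-cKO-labelled over Jun-Ctrl, against transcript GC content in percent, for the tested members other than Fzd2 (points) and for all tested genes in 10 equal bins of GC content (line and bands). The median of all genes runs from 0.22 in the bin of lowest GC content to -0.44 in the bin of highest, and Wnt5b stands above the median at high GC while Lef1 and Sfrp1 stand below them.

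Genes that release or enhance Wnt ligands included 3 that rose. Of 7 tested genes for Wnt secretion, R-spondins and related Frizzled partners, 3 were higher and none lower, where 19.0% and 22.5% of all tested genes were. Wls, the carrier that brings Wnts to the cell surface, had 55.2 and 74.4 CPM in Jun-cKO-labelled libraries and 37.8 and 36.7 CPM in Jun-Ctrl, and rose 1.72-fold (adjusted p = 1.16e-05). Rspo3, an R-spondin of endothelium, had 4.98 and 5.31 CPM against 2.49 and 1.99 CPM and rose 2.20-fold. Reck, a cofactor for Wnt7a and Wnt7b in brain vessels, rose 1.26-fold, and the acyltransferase gene Porcn and the Fzd4 partner Tspan12 had log2 fold changes of 0.09 and -0.30 without a call. Of 11 tested alternative receptors and extracellular modulators, 3 were lower (the glypicans Gpc3 and Gpc6 and the Wnt5a receptor Ror2) and 1 higher, the receptor Ptk7, beside the same shares over all genes. Gpc3 had 3.3 and 2.21 CPM in Jun-cKO-labelled libraries and 12.4 and 7.5 CPM in Jun-Ctrl, and Ptk7 had 3.08 and 2.51 CPM against 1.15 and 1.22 CPM. Gpc6 and Ror2 passed the filter on low counts through Jun-Ctrl alone, so their calls are values and not support for the count.

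Of 25 tested intracellular transducers 6 were higher and 7 lower, where 19.0% and 22.5% of all tested genes were. Ctnnb1, which encodes beta-catenin, had 2381 and 2958 CPM in Jun-cKO-labelled libraries and 1994 and 1748 CPM in Jun-Ctrl, and rose 1.43-fold (log2 ratio 0.51, SE 0.14, adjusted p = 0.00216). The 3 smallest p-values among the genes that rose were those of Tnks2, a tankyrase that destabilises Axin, Siah1a and Daam1, at 1.52-fold, 1.51-fold and 1.37-fold. Dvl3, 1 of the 3 Dishevelled genes, had 1 and 0 counts in Jun-cKO-labelled libraries and 100 and 57 in Jun-Ctrl, a pooled ratio of 0.00666 with an exact counting interval of 0.000167 to 0.0376 (adjusted p = 3.73e-13). Dvl1 had 34.3 and 34.7 CPM in Jun-cKO-labelled libraries and 38.6 and 39.0 CPM in Jun-Ctrl, Dvl2 had 7.47 and 7.97 CPM against 9.16 and 9.03 CPM, and neither was called. Daam2, a formin of the pathway, fell 16.1-fold, with 5 and 1 counts against 60 and 39, and Gsk3b, a kinase of the destruction complex, fell 1.55-fold. Dvl3 and Daam2 passed the filter on low counts through Jun-Ctrl alone, so their calls are values and not support for the count.

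Nuclear partners of beta-catenin were lower in 8 and higher in 2 of 16 tested, where 22.5% and 19.0% of all tested genes were. Bcl9l, which links beta-catenin to Pygopus proteins, had 2.10 and 0.89 CPM in Jun-cKO-labelled libraries and 11.5 and 11.6 CPM in Jun-Ctrl, and fell 6.83-fold (adjusted p = 4.87e-11). The acetyltransferase gene Crebbp had 6.88 and 5.61 CPM against 25.8 and 23.1 CPM and fell 3.85-fold, Bcl9, a relative of Bcl9l, fell 2.89-fold, and Ep300, a relative of Crebbp, had a log2 fold change of 0.21 without a call. Bcl9l was among the lower genes that passed the filter through Jun-Ctrl alone, whose calls are values and not support for the count. The 2 that rose were the kinase gene Tnik and the corepressor gene Ctbp1, at 1.45-fold and 1.25-fold. Of 16 tested beta-catenin targets outside the member list 4 were higher and 6 lower, beside the same shares over all tested genes. Foxc2, the transcription factor of lymphatic valves, had 232 and 249 CPM in Jun-cKO-labelled libraries and 155 and 133 CPM in Jun-Ctrl, and rose 1.66-fold (log2 ratio 0.73, SE 0.12, adjusted p = 1.69e-06). Nrcam, a cell adhesion gene, rose 1.83-fold and the glucose transporter gene Slc2a1 1.49-fold. The 3 smallest p-values among those that fell were those of Cd44 (3.30-fold lower), Tbx3 (1 and 0 counts in Jun-cKO-labelled libraries against 61 and 21 in Jun-Ctrl) and Sox9 (10 and 0 counts against 63 and 20). Tbx3 and Sox9 passed the filter through Jun-Ctrl alone, and their calls too are values and not support for the count. Ccnd1 had a log2 fold change of 0.14 without a call.

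Across the 14 other settings, the calls of Wnt7a, Fzd7, Fzd10, Lrp5 and Sfrp1 stood in the same direction wherever the gene was tested. Those of Fzd2 and Lef1 did too, but both genes entered the test through Jun-Ctrl alone, so this is no sign of stability for them. The Nkd1 call ended in the test against a 1.5-fold change. DESeq2 called 11 members lower and 0 higher, where it called 16.0% of all tested genes lower and 12.4% higher. At an unadjusted p under 0.05 DESeq2 had 2 members higher, and the test against a 1.5-fold change had 0. The test against a 1.5-fold change called 9 lower and 0 higher, where 9.42% and 2.06% of all genes were. Wnt6, Fzd2, Sfrp2 and Lef1 are among the 9, and all passed the filter on low counts through Jun-Ctrl alone. Their calls are values and not support for that count. The lower counts of the other settings, apart from the filter of 50 counts, also hold at least Fzd2 and Lef1. With a filter of 50 counts in 2 libraries 22 members were tested, 7 were lower and 2 higher, where 21.2% and 18.0% of all genes were. Omitting Jun-cKO-labelled replicate 1 gave 12 lower and 1 higher (20.5% and 17.9% of all genes), and omitting Jun-cKO-labelled replicate 2 gave 17 and 2 (19.8% and 15.9%). Omitting Jun-Ctrl replicate 1 gave 10 lower and 1 higher (14.8% and 9.63%), and omitting Jun-Ctrl replicate 2 gave 13 and 1 (16.4% and 9.29%). Other scalings and limma-voom gave 15 to 17 lower and 2 higher, where 22.5% (RLE), 24.9% (library totals) and 22.6% (limma-voom) of all genes were lower and 18.7%, 15.2% and 19.4% higher. Without a filter 18 of 49 members were lower and 3 higher, where 18.5% and 14.8% of all genes were. The replicate block gave 15 lower and 2 higher (23.0% and 19.9% of all genes), and with the GC correction added 16 and 2 (21.9% and 22.2%).

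**Figure D5:**
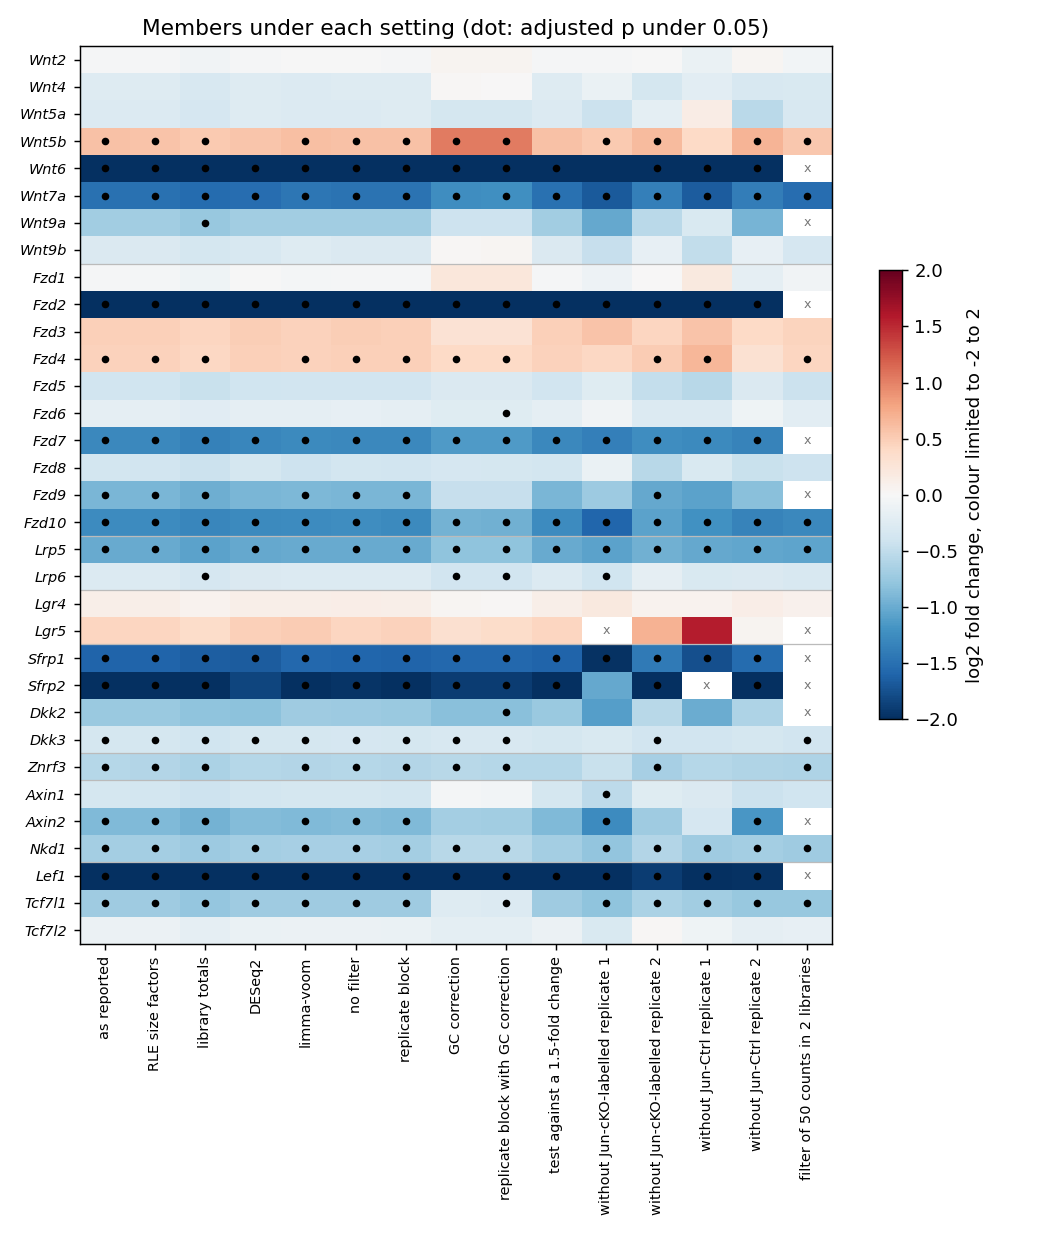
Log2 fold change of each tested member (colour, limited to -2 to 2) as reported and under each of the 14 other settings, with a dot where the adjusted p is under 0.05 and a cross where the member was not tested. Wnt7a, Fzd10 and Lrp5 carry a dot under all 14, and the rows of Wnt5b and Fzd4 are red throughout.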

How the data were processed

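The members and gene lists were chosen with earlier results of these data known. Per the labels' protocols, RNA from sorted cells was amplified before library preparation. The authors deposited 1 table of raw counts, with a length in bases for each gene. The submitters' processing notes list the build mm10 and the tools featureCounts 1.6.4, STAR 2.7.2a and edgeR 3.28.1 but not what each did, and the annotation is not given in the sources used here. The test was the quasi-likelihood F test of edgeR 4.0.16, run under R 4.3.3 (TMM, filterByExpr, glmQLFit and glmQLFTest) over all 12656 genes that passed the filter, Jun-cKO minus Jun-Ctrl, without a block, and p-values were adjusted by Benjamini-Hochberg over all of them. A call is an adjusted p under 0.05. Standard errors come from the fold change and its F statistic. A group at 0 is set against 3 counts, which, like the exact intervals, covers counting error only, since amplified reads are not independent molecules. Named genes are all members and, of each fixed list of other pathway genes, up to 3 called in each direction by p and up to 2 uncalled. All called lymphatic markers are named as well. The uncalled genes, Ctnnb1 and Prox1 were picked after their values were seen. GENCODE M21 (GRCm38) gave locations and the GC content of transcripts. The GC correction is a loess offset per library (span 0.5). Alternatives were DESeq2 1.42.0, limma-voom (limma 3.58.1), other scalings, filters, a replicate block and each library left out. The fit was tested on simulated counts in which 200 of 12656 genes were changed. It recovered 42% of the 1.5-fold changes and 81% of the 2-fold changes, and 5.38% of its calls were false. A missing call therefore does not show that a gene was unchanged.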

Additional observations from a re-analysis of the deposited data

How the results depend on the processing

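Of 5251 genes called over all tested genes, 1453 passed a test against a 1.5-fold change, and 2992 to 4794 were called when 1 library was left out, 2992 without Jun-Ctrl replicate 1 and 3425 once Jun-Ctrl replicate 2 was omitted. Members called higher, 2 as reported, were 0 in DESeq2 (2 at an unadjusted p under 0.05) and 0 in the test against a 1.5-fold change, and 1 to 2 with a library left out (1 on leaving out Jun-cKO-labelled replicate 1 or either Jun-Ctrl library). Members called lower, 15 as reported, were 7 with the filter of 50 counts in 2 libraries, which tested 22 members, 9 in the test against a 1.5-fold change, 11 in DESeq2 and 10 to 17 with a library left out, where the lone library of a group is assumed to vary like the others. Without any filter 18 members were lower and 3 higher, with Apcdd1, Nkd2 and Dkk4 among the lower and Sfrp5 among the higher. Members that changed sign were not called: with the GC correction, alone and with the replicate block, the log2 fold change was 0.0295 and 0.0389 for Wnt9b, 0.0199 and 0.0093 for Wnt4, 0.228 and 0.227 for Fzd1, and 0.0513 and 0.0541 for Wnt2. With a library left out, Fzd1 ran from -0.183 to 0.201, Wnt2 from -0.135 to 0.0455, Wnt5a from -0.532 to 0.156 and Tcf7l2 from -0.307 to 0.0264. The cause of these changes was not tested. With the replicate block 15 members were lower and 2 higher, as without it. Deviations of same-numbered libraries correlated at 0.0732 over 12656 genes, which does not show whether those libraries share a batch. The labels name no batch. Total counts were 15558476 (Jun-cKO-labelled) and 16037416 (Jun-Ctrl) for replicate 1, and 6911821 and 6483514 for replicate 2. Wnt6, Fzd2, Sfrp2 and Lef1 rest on few counts in the Jun-cKO-labelled libraries. They passed the filter on low counts through Jun-Ctrl alone, so their calls are no support for the counts of lower members that include them.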
